A study of Rattus norvegicus with 36 samples.

Results

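Liver expression at 0.71 mg/kg of bis(2-ethylhexyl) tetrabromophthalate (TBPH) was set against vehicle on 12 of the 36 arrays of the series, 6 from dosed rats and 6 from vehicle rats, over all 31042 probe sets that are not array controls. Both groups were male Sprague Dawley rats, 7 weeks old when dosing began, fed the same diet and gavaged with corn oil at 5 ml/kg on 5 consecutive days; the vehicle group received the oil with TBPH at 0 mg/kg. RNA came from the left liver lobe, taken 1 day after the last gavage. The next dose down (0.07 mg/kg) and the next dose up (7.06 mg/kg), with 6 arrays each, serve here for direct comparisons between doses. Each value is a log2 level, so a difference of 1 is a 2-fold change, and arrays are named by group and by the replicate number in the labels. Where a gene is followed by 3 values for each group, they are the lowest, the median and the highest of 6 arrays, vehicle first, and brackets after a difference hold its 95% confidence interval. The labels do not state that the 6 arrays of a group are 6 animals, and p-values therefore measure the spread between samples. For p-values and intervals alike, that spread was estimated within groups over all 36 arrays of the series. A whole lobe mixes hepatocytes with other cells, so fewer cells of a type and less RNA per cell cannot be told apart in any result below.

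TBPH is a brominated flame retardant built on a phthalate ester, with the same 2-ethylhexyl side chains as the plasticiser DEHP. Phthalate esters of this kind are known in rodent liver for activating PPAR alpha, the nuclear receptor that switches on fatty acid oxidation, and some chemicals of related use act through CAR and PXR, the receptors that induce drug-metabolising enzymes. Liver RNA also carries signals that need not be a hepatocyte's response to a chemical. One is the interferon response, in which interferon receptors signal through STAT and IRF factors to antiviral and antigen-presenting genes. Another is the matrix program of stellate cells and fibroblasts, which make collagen and contractile proteins. The labels state that each dose was compared with vehicle at a false discovery rate of 5%, and the question addressed here is which liver transcripts differed after 0.71 mg/kg.

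No transcript met that criterion. By limma with Benjamini-Hochberg adjustment, 0 of 31042 probe sets (0%) were called at 0.71 mg/kg against vehicle, and the smallest adjusted p was 0.9998. At an unadjusted p under 0.05 there were 1235 probe sets, fewer than the 1552 that make up 5% of those tested, with 450 higher (1.45%) and 785 lower (2.53%). Their split depends on the scaling: 177 of 1216 were higher after median centring of each array, 595 of 1183 after cyclic loess and 195 of 274 once dim probe sets were left out. In 48 probe sets the 6 dosed values and the 6 vehicle values did not overlap, 14 of them higher in dosed livers (0.0451%) and 34 lower (0.11%).

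The lower differences lay among dim probe sets. Of 19362 probe sets with a mean below 6, 709 were lower and 259 higher below an unadjusted p of 0.05, and their median difference was -0.020; of 11680 with a mean of at least 6, 76 were lower and 191 higher, with a median of 0.017. The median standard error of a difference was 0.084. The 95% confidence interval of a single difference stayed within 1.5-fold of no change for 96.7% of the brighter probe sets and within 2-fold for 99.3% of them; these intervals are not adjusted for the number of probe sets. Among the brighter probe sets, 28 were higher and 10 lower by 0.5 or more, and 3 differed by 1 or more. Agreement between arrays was high, with pairwise correlations of 0.992 to 0.995 across probe sets, and the 3′ minus 5′ level of Gapdh, a sign of RNA quality, spanned -0.18 to 0.03 in vehicle and -0.15 to 0.05 in dosed arrays.

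**Figure D1:**
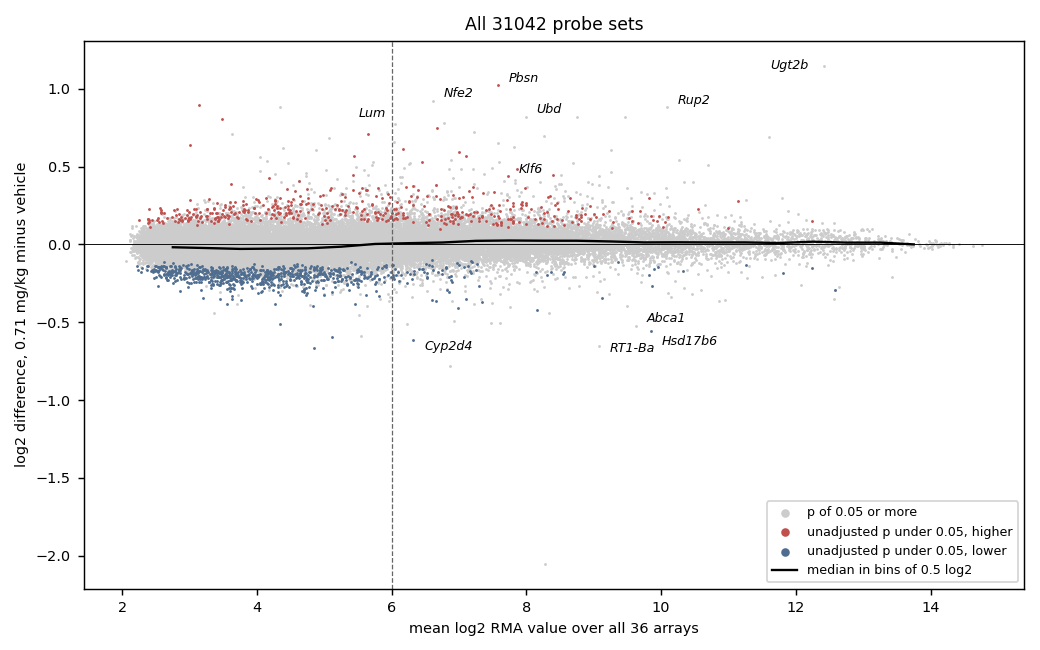
Difference between 0.71 mg/kg and vehicle (log2, 6 arrays each) for 31042 probe sets against their mean log2 level over all 36 arrays; the dashed line marks a mean of 6, coloured points have an unadjusted p under 0.05 and the black curve is the median in bins of 0.5. The 785 lower points lie mostly left of the dashed line, and none of the coloured points passed adjustment.

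Antiviral genes varied together from array to array in both groups. Of 32 antiviral effectors and RNA sensors measured, 26 had a higher mean at 0.71 mg/kg and 6 a lower one, with a median difference of 0.14, against a median of 0.0067 and 53.4% higher over the brightest probe set of all 14217 genes. None of the 32 passed the adjusted test, and at an unadjusted p under 0.05 there were 0 higher and 1 lower. The mean of the list over its genes had a lowest, median and highest value of 6.61, 7.13 and 7.43 in vehicle arrays and 6.48, 7.22 and 7.52 in dosed arrays, so the vehicle range lay inside the dosed range. Dosed replicate 4 was the lowest dosed array for 27 of the 32 genes, and vehicle replicates 2 and 3 were the lowest vehicle arrays for 16 and 14. The median difference was 0.25 without dosed replicate 4 and 0.037 without vehicle replicate 2.

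Irf7, the transcription factor that amplifies interferon production, read 6.66, 7.68 and 8.11 (lowest, median and highest) in vehicle livers and 6.34, 7.90 and 8.50 in dosed livers. Both the highest and the lowest of the 12 arrays were dosed ones, replicates 3 and 4, and the difference of 0.29 had an interval of -0.34 to 0.91. Mx2, an antiviral GTPase, had the largest difference of the list at 0.66 (-0.32 to 1.64), from 4.63, 5.74 and 7.02 in vehicle to 4.69, 6.45 and 7.61 in dosed livers. The second probe set of Mx2 differed by 0.10. For Mx1, its paralog, the values were 4.07, 5.24 and 5.75 and 4.47, 5.37 and 6.36, a difference of 0.42 (-0.28 to 1.12). In all 3 genes vehicle replicates 2 and 3 and dosed replicate 4 sat at the low end together. Isg15, a ubiquitin-like protein conjugated during the interferon response, had the same 3 arrays lowest, with 6.13, 6.91 and 7.66 in vehicle, 5.98, 7.25 and 7.96 in dosed livers and a difference of 0.37 (-0.29 to 1.02). Oasl, a relative of the oligoadenylate synthetases that sense double-stranded RNA, differed by 0.22 (-0.083 to 0.52).

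Ifit1, an RNA-binding antiviral protein, and Trim25, a ubiquitin ligase of RNA sensing, went the other way. Ifit1 read 5.49, 5.64 and 6.00 in vehicle and 5.16, 5.48 and 5.63 in dosed livers, a difference of -0.23 (-0.43 to -0.028), with 3 dosed arrays below every vehicle array. Trim25 read 8.58, 8.70 and 9.19 and 8.21, 8.57 and 8.75, a difference of -0.28 (-0.59 to 0.026), with 4 dosed arrays below all vehicle arrays. In neither gene were vehicle replicates 2 and 3 both at the low end, as they were in Irf7 and Mx2.

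**Figure D2:**
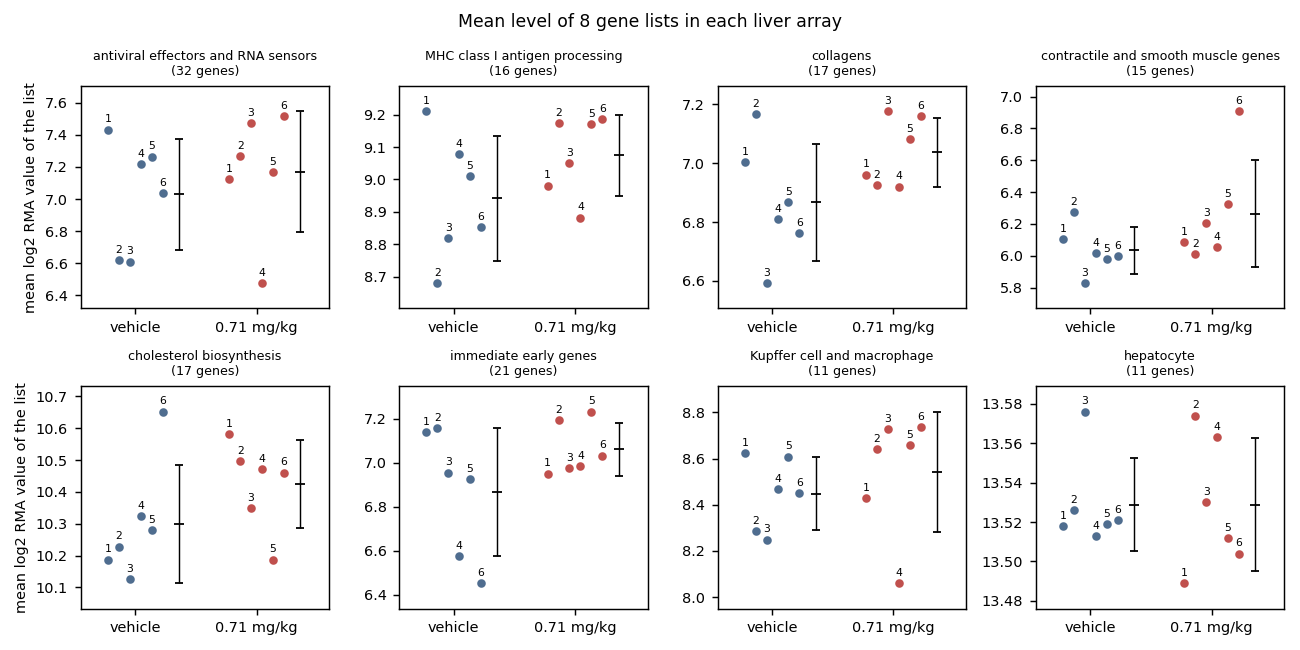
Mean log2 RMA level of 8 gene lists in each of the 6 vehicle and 6 dosed arrays (numbers are replicate numbers); bars give the mean and SD of the 6 arrays. Dosed replicate 4 is lowest in the antiviral and Kupffer cell panels, dosed replicate 6 stands alone at 6.91 in the contractile panel, and hepatocyte markers span 13.49 to 13.58.

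The genes downstream of interferon gamma varied in the same arrays. Of 12 GTPases and chemokines of this branch 8 were higher, with a median of 0.069, and 1 had an unadjusted p under 0.05. That gene was Cxcl9, a chemokine that attracts T cells, at 6.25, 6.73 and 7.28 in vehicle and 6.26, 7.66 and 7.88 in dosed livers. Dosed replicates 2, 3, 5 and 6 lay above every vehicle array while dosed replicate 4 lay beside the lowest of them, and the difference was 0.57 (0.064 to 1.08); the gene's second probe set differed by 0.48. Cxcl10, a chemokine of the same receptor, read 5.15, 5.40 and 5.72 and 5.30, 5.65 and 6.37, with 3 dosed arrays above all vehicle arrays and a difference of 0.35 (-0.21 to 0.91). Gbp7, a guanylate-binding protein, differed by 0.37 (-0.16 to 0.91) with overlapping groups. Without vehicle replicate 2 the list median was 0.0082, without dosed replicate 4 it was 0.22 and without dim probe sets it was 0.024. Among 19 regulators of interferon signalling the median was 0.043, with 16 higher. Tyk2, the kinase bound to the interferon receptor, was the one regulator with an unadjusted p under 0.05; it read 8.14, 8.31 and 8.58 in vehicle and 8.30, 8.49 and 8.76 in dosed livers, and 2 dosed arrays exceeded all vehicle arrays.

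Antigen-presenting genes were higher in most members, with vehicle replicate 1 high as well. In the MHC class I list, 14 of 16 genes were higher, with a median of 0.096, and of 0.048 without vehicle replicate 2. Psmb9, a catalytic subunit of the immunoproteasome, read 7.82, 8.12 and 9.25 in vehicle and 8.18, 8.81 and 9.23 in dosed livers, and Psmb8, its partner subunit, read 8.26, 8.88 and 10.08 and 8.91, 9.42 and 10.20. Vehicle replicate 1 was among the 2 highest arrays for both, and the differences were 0.44 (-0.087 to 0.97) and 0.46 (-0.25 to 1.18). Tap1, which carries peptides into the endoplasmic reticulum, differed by 0.19 (-0.23 to 0.61). In the class II list 8 of 9 genes were higher, and its median of 0.32 was the highest of the 41 lists; it ran from 0.18 without dosed replicate 6 to 0.45 without vehicle replicate 1. Cd74, the invariant chain of class II, read 9.20, 9.51 and 10.26 in vehicle and from 9.08 to 10.30 in dosed livers, a difference of 0.34 (-0.15 to 0.83), with dosed replicate 4 below every vehicle array and replicate 6 above them all. RT1-Db1, a class II beta chain, differed by 0.34 (-0.17 to 0.86) and RT1-DMb, a chain of the class II peptide exchange molecule, by 0.32 (-0.12 to 0.76). No gene of either list passed the adjusted test or had an unadjusted p under 0.05.

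Markers of resident macrophages moved with these lists. Of 11 Kupffer cell and macrophage markers 10 were higher, with a median of 0.10, and none passed the test. All 11 were lowest in dosed replicate 4 among the dosed arrays, the array that was also lowest for 27 antiviral genes. The summed level, as a mean over the markers, was 8.25, 8.46 and 8.62 in vehicle and 8.06, 8.65 and 8.74 in dosed arrays, and the list median was 0.21 without dosed replicate 4 and 0.057 without vehicle replicate 3. Csf1r, the receptor for a macrophage growth factor, read 7.52, 7.63 and 7.83 and 7.39, 7.81 and 8.01; C1qc, a complement subunit made by macrophages, read 9.07, 9.35 and 9.51 and 9.05, 9.56 and 9.68; Cd163, a scavenger receptor, read 6.61, 6.80 and 7.00 and 6.43, 6.96 and 7.42. In each of these 3 genes dosed replicate 4 lay below all vehicle arrays while 3 or 4 dosed arrays lay above them. T and NK cell markers had a median of 0.043, with 14 of 17 higher, and vehicle replicate 2 was the lowest vehicle array for 11 of them. The part of these cell types in the interferon values was not tested.

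**Figure D3:**
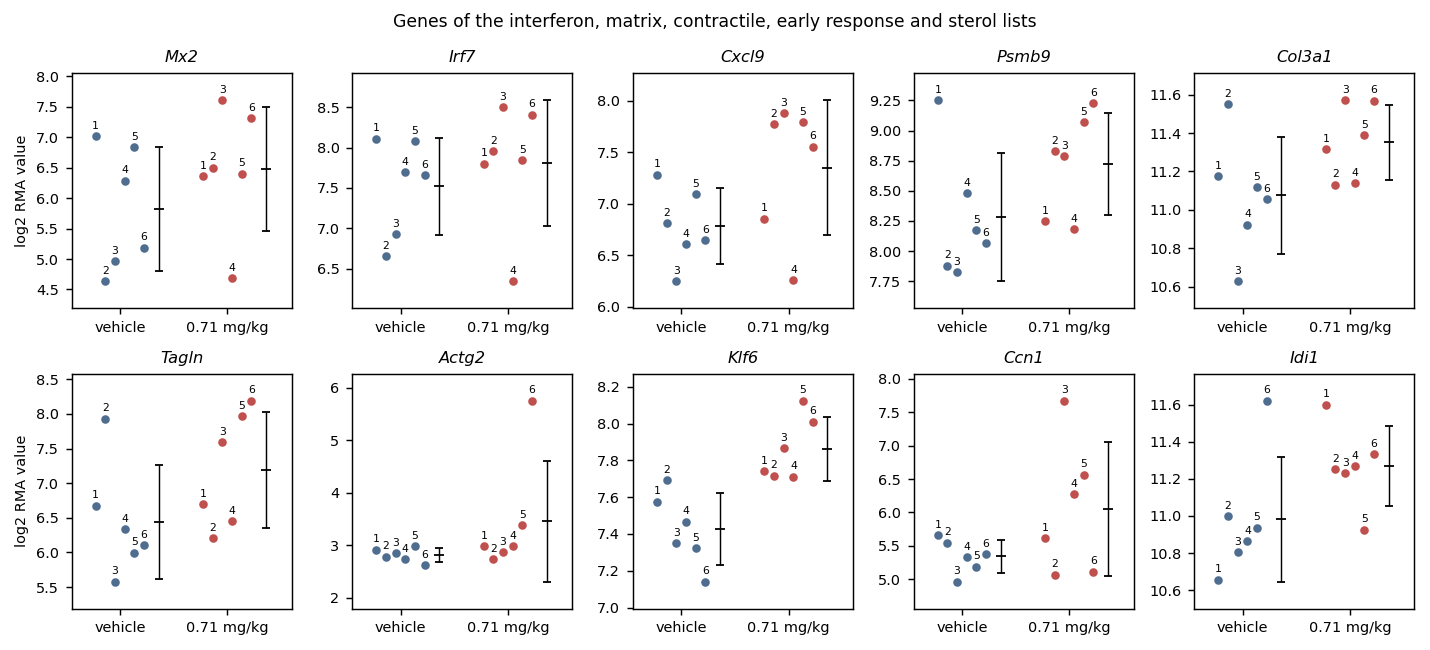
Log2 RMA value of 10 genes from the interferon, matrix, contractile, early response and sterol lists in each vehicle and dosed array (numbers are replicate numbers, bars are mean and SD over 6 arrays). Klf6 is the one panel without overlap, at 7.14 to 7.69 in vehicle and 7.71 to 8.12 in dosed arrays; in Mx2 and Irf7 the groups overlap.

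Promoters of 3 of these genes are shown because, in 3 of the lists, most genes with a promoter window share a motif. Whether the motif bears on the array order that the lists share was not tested. The letters GAAANNGAAA, the core of the interferon-stimulated response element, were searched on both strands of RefSeq windows running from 250 bases before to 50 bases after each gene's start. At least 1 match lay in 15 of 23 antiviral genes with a window, 7 of 9 interferon gamma genes and 7 of 13 class I genes, against 1312 of 33469 windows in the table (3.92%). The motif was in 3 of 15 regulators, the list that holds Irf7, in 1 of 7 class II genes and in 0 of 12 collagen genes. It was in 1 of 10 Kupffer cell and macrophage genes, a list that was also lowest in dosed replicate 4 among the dosed arrays. List counts are of genes with a match in any of their windows, while the share over the table is of single windows. Each sequence below holds the 250 bases before the start, 5′ to 3′ on the gene's strand, in build GRCr8 of RefSeq, and the match is in capitals; a match is a description of these letters and shows no binding. In Irf7 and Tap1 the match lies on the opposite strand, starting 69 and 121 bases before the gene's start, and in Cxcl10 on the gene's own strand at 243 bases.
Irf7, chr1:205800024-205800273, minus strand: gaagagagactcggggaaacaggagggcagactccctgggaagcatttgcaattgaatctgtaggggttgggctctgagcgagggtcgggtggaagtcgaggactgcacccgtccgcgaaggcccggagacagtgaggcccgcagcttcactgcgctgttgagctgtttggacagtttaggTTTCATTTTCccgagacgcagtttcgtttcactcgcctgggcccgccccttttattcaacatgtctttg
Cxcl10, chr14:15988816-15989065, plus strand: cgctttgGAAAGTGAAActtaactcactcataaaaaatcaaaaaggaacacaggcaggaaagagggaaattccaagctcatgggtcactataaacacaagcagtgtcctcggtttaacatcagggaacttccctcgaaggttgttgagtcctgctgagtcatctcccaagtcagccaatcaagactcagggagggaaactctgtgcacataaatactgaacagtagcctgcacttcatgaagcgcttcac
Tap1, chr20:4668544-4668793, minus strand: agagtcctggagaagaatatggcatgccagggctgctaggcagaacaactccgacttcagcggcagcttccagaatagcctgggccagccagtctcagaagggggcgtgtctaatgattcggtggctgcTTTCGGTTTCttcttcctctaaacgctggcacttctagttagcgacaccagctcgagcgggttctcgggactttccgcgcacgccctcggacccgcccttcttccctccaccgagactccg

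Matrix genes were higher in most members and in no member past the threshold. Of 17 collagen genes 15 had a higher mean at 0.71 mg/kg, with a median of 0.19, and 3 had an unadjusted p under 0.05. Col3a1, the chain of type III collagen, read 10.63, 11.09 and 11.55 in vehicle and 11.13, 11.35 and 11.57 in dosed livers, with vehicle replicate 2 among the highest arrays, and differed by 0.28 (0.0060 to 0.55). Col4a2, of basement membrane, differed by 0.21 (0.0041 to 0.41) and had 3 dosed arrays above every vehicle array. Col6a1, of microfibrils around cells, differed by 0.25 (0.0013 to 0.51). The chains of type I collagen, Col1a1 and Col1a2, differed by 0.19 (-0.10 to 0.48) and 0.40 (-0.042 to 0.84). Vehicle replicate 2 was the highest vehicle array for 13 of the 17 collagens and vehicle replicate 3 the lowest for 11, and the list mean spanned 6.59, 6.84 and 7.16 in vehicle and 6.92, 7.02 and 7.17 in dosed arrays.

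Among 29 other matrix proteins and crosslinking enzymes 27 were higher, with a median of 0.10. Vehicle replicate 3 was the lowest vehicle array for 22 of them and dosed replicate 6 the highest dosed array for 17. Mfap4, a microfibril protein, read 4.64, 5.22 and 5.83 in vehicle and 5.02, 5.66 and 6.93 in dosed livers, a difference of 0.57 (0.061 to 1.08) and the only one of this list with an unadjusted p under 0.05. Mgp, an inhibitor of calcification, read 7.61, 8.77 and 9.33 and 8.44, 8.97 and 10.39; dosed replicate 6 stood above the other 11 arrays. Lum and Dcn, small proteoglycans that bind collagen fibrils, spanned 4.33, 5.58 and 7.40 and 5.06, 5.95 and 7.55 in vehicle alone, and their differences of 0.77 (-0.36 to 1.91) and 0.52 (-0.11 to 1.16) lay inside that spread. Ogn, another proteoglycan of this family, differed by 0.33 (-0.018 to 0.67), and all 4 of its probe sets were higher.

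Of 15 proteases and inhibitors of matrix turnover 10 were higher, 3 of them at an unadjusted p under 0.05. Mmp12, the macrophage elastase, read 4.34, 4.51 and 4.65 and 4.62, 4.72 and 5.21, a difference of 0.26 (0.083 to 0.44) with 4 dosed arrays above all vehicle arrays. Timp2, an inhibitor of metalloproteases, differed by 0.25 (0.040 to 0.46) on its brightest probe set and by 0.029 on the other. Mmp2, a gelatinase, differed by 0.27 (0.026 to 0.51) on its brightest probe set and by -0.093 on the other. Outside the lists, P3h3, an enzyme that hydroxylates collagen prolines, read 4.05, 4.37 and 4.68 and 4.57, 4.62 and 4.79 and differed by 0.29 (0.11 to 0.47). P3h3 was dim and was named for its small p.

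The contractile and smooth muscle list rested largely on 1 liver. Of 15 genes 13 were higher, with a median of 0.18 and 5 at an unadjusted p under 0.05, and dosed replicate 6 was the highest dosed array for 12. Its list mean was 6.91 against 6.01 to 6.32 in the other 5 dosed arrays and 5.83 to 6.28 in vehicle. Without it the median was 0.093, over all probe sets of the members it was 0.046 and without dim probe sets 0.081. Actg2, a smooth muscle actin, read 2.62, 2.82 and 2.99 in vehicle and 2.74, 2.99 and 5.75 in dosed livers; replicate 6 alone carried the highest value, and the next dosed array stood at 3.39. Cnn1, calponin of smooth muscle, read 3.65, 3.91 and 4.21 and 3.89, 4.03 and 5.19, again with replicate 6 apart. Tagln, an actin-binding protein of smooth muscle, read 5.58, 6.22 and 7.93 and 6.21, 7.15 and 8.19, with vehicle replicate 2 and dosed replicates 3, 5 and 6 high, and differed by 0.75 (0.0059 to 1.49). Des, the intermediate filament desmin, differed by 0.24 (0.048 to 0.44) and Synpo2, an actin-bundling protein, by 0.18 (0.024 to 0.33). Of the 4 probe sets of Synpo2, 3 were higher and 1 lower. Acta2, the actin of activated stellate cells, differed by 0.047 (-0.21 to 0.30).

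Signalling genes upstream of matrix production gave a mixed picture. The TGF-beta and PDGF list had a median of 0.0052, with 10 of 18 higher; it was 0.068 without dim probe sets and -0.021 after median centring. Pdgfa, a growth factor for stellate cells, read 5.23, 5.41 and 5.74 in vehicle and 5.54, 5.79 and 6.05 in dosed livers, with 4 dosed arrays above every vehicle array and a difference of 0.35 (0.057 to 0.64). The PDGF receptors Pdgfra and Pdgfrb differed by 0.16 (-0.100 to 0.42) and -0.033 (-0.27 to 0.21), and Tgfb1, the main fibrogenic cytokine, by -0.014 (-0.18 to 0.16), a sign that turned under cyclic loess. Outside the lists, Itga8, an integrin chain found on stellate cells and smooth muscle, did not overlap between groups. It was dim, at 4.44, 4.71 and 4.80 and 4.80, 4.98 and 5.18, a difference of 0.30 (0.14 to 0.46). Itga8 was named for its small p, and 48 of 31042 probe sets (0.155%) had no overlap, so it does not add to the lists above.

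Stellate cell markers stood beside the matrix genes at a median of 0.096, with 11 of 15 higher, 0 called and 1, Des, at an unadjusted p under 0.05. The median was 0.033 without vehicle replicate 3 and 0.037 over all probe sets of the markers. Their mean level was 6.45, 6.63 and 6.80 in vehicle and 6.66, 6.72 and 6.75 in dosed arrays, lowest in vehicle replicate 3 and highest in vehicle replicate 2, the arrays that also bounded the vehicle collagens. Colec11, a lectin, read 9.89, 10.01 and 10.23 and 9.99, 10.23 and 10.38, and Cygb, a globin of stellate cells, read 5.68, 5.71 and 5.84 and 5.78, 5.88 and 6.05; their differences were 0.18 (-0.0076 to 0.36) and 0.16 (-0.018 to 0.34). Portal fibroblast markers had a median of 0.0029, and their mean in dosed replicate 6 was 5.92 against 5.69 to 5.75 in the other dosed arrays. These marker lists share genes with the lists they stand beside. Des is also counted among the contractile genes, and Mfap4, a portal fibroblast marker, among the other matrix proteins. Their values are therefore the same measurements and not separate ones. The part of these cells in the matrix and contractile values was not tested.

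Of 17 genes of cholesterol synthesis 15 had a higher mean, and the median difference was 0.16, with 0 called and 0 at an unadjusted p under 0.05. Vehicle replicate 6 was the highest vehicle array for 13 of them, dosed replicate 1 the highest dosed array for 9 and dosed replicate 5 the lowest dosed array for 13. Idi1, which isomerises isopentenyl diphosphate, read 10.66, 10.90 and 11.62 in vehicle and 10.93, 11.26 and 11.60 in dosed livers; vehicle replicate 6 and dosed replicate 1 were the highest and nearly level, and the difference was 0.29 (-0.091 to 0.67). Sqle, the oxygenase that makes squalene epoxide, differed by 0.24 (-0.20 to 0.68), Mvk, mevalonate kinase, by 0.17 (-0.047 to 0.40), and Dhcr7, the last reductase of the pathway, by 0.17 (-0.097 to 0.44). The list median was 0.23 without vehicle replicate 6, 0.089 without dosed replicate 1 and 0.10 over all probe sets of the members.

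Sterol sensors followed with a median of 0.11 over 11 genes, which was 0.066 without dosed replicate 1 and 0.047 over all their probe sets. Srebf2, the transcription factor that drives this pathway, read 7.92, 8.07 and 8.27 and 7.96, 8.30 and 8.51, with 4 dosed arrays above all vehicle arrays; its difference was 0.20 (-0.066 to 0.46), while a second probe set stood at -0.031. Insig1, which holds that factor's precursor in the endoplasmic reticulum, differed by 0.17 (-0.43 to 0.78). Mylip, the ligase that degrades lipoprotein receptors, was the list's one gene at an unadjusted p under 0.05, at 5.14, 5.34 and 5.73 and 5.41, 5.69 and 5.94, a difference of 0.28 (0.060 to 0.50). Abca1, the cholesterol exporter, read 8.33, 10.20 and 10.34 and 7.97, 9.65 and 10.40 with low arrays in both groups, vehicle replicate 4 and dosed replicates 2 and 5, and its 4 probe sets differed by -0.52 to 0.17. Fatty acid and triglyceride synthesis had a median of 0.042, and Acss2, which activates acetate, differed by 0.19 (-0.10 to 0.48).

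**Figure D4:**
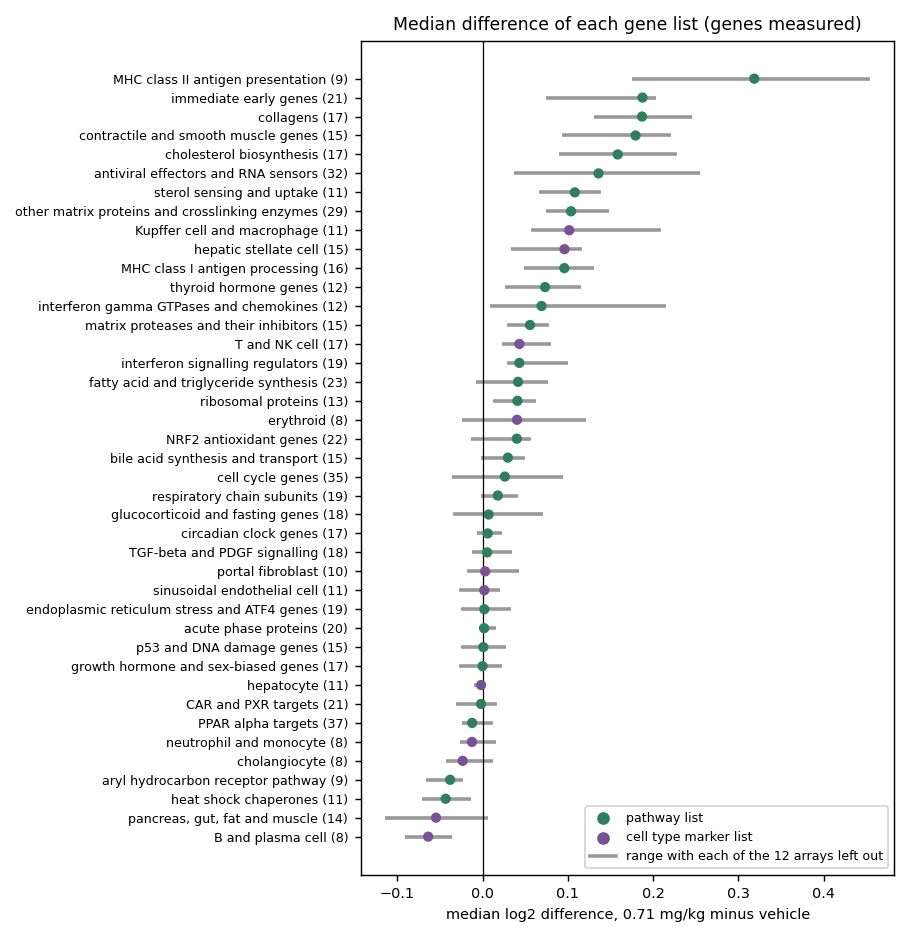
Median log2 difference (0.71 mg/kg minus vehicle) of each of 41 gene lists, with the number of genes measured in brackets; grey lines span the medians obtained with each of the 12 arrays left out in turn. MHC class II lies highest at 0.32 and B and plasma cell markers lowest at -0.064, and the PPAR alpha and CAR and PXR lists lie at -0.012 and -0.0020.

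PPAR alpha targets, the program that phthalate esters are known for, had a median of -0.012 over 37 genes, with 16 higher and 21 lower, 0 called, and 0 higher and 1 lower at an unadjusted p under 0.05. The list mean was 9.50, 9.66 and 9.77 in vehicle and 9.56, 9.63 and 9.80 in dosed arrays, and dosed replicate 3 was the lowest dosed array for 20 of the genes. Cyp4a1, a fatty acid omega-hydroxylase and standard marker of receptor activation, read 11.01, 11.24 and 11.72 and 10.84, 11.26 and 11.58, a difference of -0.085 (-0.39 to 0.22). Ehhadh, which carries out the middle steps of beta-oxidation in peroxisomes, read 10.98, 11.17 and 11.30 and 10.93, 11.23 and 11.27, and its difference of 0.016 (-0.17 to 0.20) turned in sign under median centring. Both intervals include 0, and their ends give the size of difference in either direction that this comparison does not resolve. Pdk4, a brake on glucose oxidation, differed by 0.20 (-0.28 to 0.67), and Ppara itself by 0.22 (-0.18 to 0.62). Pex11a, a peroxisome division factor, was the gene with an unadjusted p under 0.05, lower at 8.26, 8.47 and 8.59 in dosed livers against 8.48, 8.66 and 8.75 in vehicle, and both of its probe sets were lower.

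Drug-metabolism genes had small differences in both directions. The CAR and PXR list had a median of -0.0020 over 21 genes, 0 of them at an unadjusted p under 0.05. Cyp3a23-3a1, the main inducible Cyp3a of rat liver, read 12.03, 12.70 and 13.02 and 12.42, 12.58 and 12.87, a difference of -0.0061 (-0.24 to 0.23) whose sign turned with the Gapdh ratio as a covariate. Abcb1a, a drug efflux pump, had 4 dosed arrays above all vehicle arrays and differed by 0.21 (-0.028 to 0.45); Ephx1, an epoxide hydrolase, differed by 0.14 (-0.044 to 0.32) and Cyp2b3 by -0.073 (-0.17 to 0.022). In the aryl hydrocarbon receptor list 8 of 9 genes were lower, with a median of -0.038; Cyp1a1, its most inducible target, read 4.37, 4.78 and 4.91 and 4.48, 4.56 and 4.80, both dim. NRF2 antioxidant genes had a median of 0.040, and Mafg, a small partner of NRF2, differed by 0.18 (0.025 to 0.34). The second probe set of Mafg differed by -0.033. In the bile acid list (median 0.029), Cyp7a1, the hydroxylase that commits cholesterol to bile acids, spanned 9.30, 10.74 and 11.21 in vehicle and 8.64, 10.59 and 11.61 in dosed livers, so its difference of -0.32 (-1.30 to 0.67) could not be resolved. Abcg5, a sterol exporter into bile, differed by 0.30 (-0.16 to 0.76), and Abcb11, the bile salt pump, by 0.082 (-0.058 to 0.22).

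Immediate early genes, which respond to stimulation within minutes, had a higher mean in 16 of 21 cases and a median difference of 0.19, with 0 called and 2 at an unadjusted p under 0.05. Klf6, a zinc finger transcription factor of this class, was the only one of the 664 list members whose groups did not overlap, a share of 0.151% against 0.155% (48) over all 31042 probe sets, which is near the same. Its values were 7.14, 7.41 and 7.69 in vehicle and 7.71, 7.81 and 8.12 in dosed livers, and the lowest dosed array exceeded the highest vehicle array by a narrow margin. The difference was 0.44 (0.13 to 0.75; adjusted p = 0.9998 by limma), and its 3 probe sets were all higher, by 0.28 to 0.44. Ccn1, a matricellular protein induced by serum, read 4.96, 5.35 and 5.66 and 5.07, 5.94 and 7.67, with dosed replicates 3, 4 and 5 high and replicates 1, 2 and 6 within the vehicle range, and differed by 0.71 (0.035 to 1.38). Myc, a growth factor response gene, read 6.68, 7.15 and 8.76 and 6.46, 8.36 and 8.65: vehicle replicates 1 and 2 and dosed replicates 1, 2, 4, 5 and 6 were high and the others low. Vehicle replicate 6 was the lowest vehicle array for 12 of the 21 genes, and without it the list median was 0.074.

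The promoter of Klf6 is shown because it holds a CArG box, the motif of serum response factor, which is known from promoters of early genes. The motif was searched on both strands of the same windows. It lay in 4 of 15 early genes with a window, in 0 of 11 contractile genes and in 548 of 33469 windows in the table (1.64%). As above, list counts are of genes and the share over the table is of single windows. In Klf6 the match starts 201 bases before the gene's start.
Klf6, chr17:69458479-69458728, minus strand: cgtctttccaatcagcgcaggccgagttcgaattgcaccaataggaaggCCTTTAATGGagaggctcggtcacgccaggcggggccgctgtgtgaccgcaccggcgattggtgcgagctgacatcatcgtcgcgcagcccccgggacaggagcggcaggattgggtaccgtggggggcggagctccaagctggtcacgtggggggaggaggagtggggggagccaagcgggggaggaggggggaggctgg

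Gadd45g, Gadd45a and Cish had with Myc a highest vehicle value in replicate 2 and a lowest dosed value in replicate 3. The mean of the p53 and DNA damage list, which holds Gadd45g, had a like order. It was 7.36 and 7.33 in vehicle replicates 1 and 2 and 7.05 to 7.17 in the other vehicle arrays. In dosed replicate 3 it was 6.99, against 7.21 to 7.42 in the other dosed arrays. By member, vehicle replicate 2 was the lowest vehicle array for 5 of the 15 genes and the highest for 3. Dosed replicate 3 was the lowest dosed array for 5 and the highest for 2. The growth hormone and sex-biased list mean was lowest in dosed replicate 1, at 9.39. Gadd45g, a growth arrest gene, spanned 6.32, 7.46 and 9.57 in vehicle and 6.47, 8.93 and 9.52 in dosed livers, and Gadd45a spanned 7.81, 8.29 and 9.52 and 7.89, 8.94 and 9.19; in both, vehicle replicates 1 and 2 were the highest of their group and dosed replicate 3 the lowest of its own. Cish, an inhibitor of growth hormone signalling, read 5.27, 6.38 and 7.89 and 5.92, 7.40 and 8.15, also low in dosed replicate 3 and in vehicle replicates 4, 5 and 6. Their differences of 0.70 (-0.48 to 1.88), 0.34 (-0.24 to 0.91) and 0.72 (-0.31 to 1.75) were each smaller than the range inside a group. The list medians were 0.0007 for p53 and DNA damage genes, 0.0019 for endoplasmic reticulum stress, -0.043 for heat shock chaperones and -0.0001 for growth hormone and sex-biased genes. Hspa5, the chaperone of the endoplasmic reticulum, differed by -0.13 (-0.28 to 0.025). Cyp2c11, the male-specific cytochrome, differed by -0.084 (-0.19 to 0.024), and Hsd17b2, which inactivates sex steroids, by 0.26 (-0.081 to 0.60). Cell cycle genes had a median of 0.026: Mki67, a proliferation marker, read 3.84, 4.26 and 5.05 and 3.74, 4.58 and 5.18, and Mcm5, of the replication helicase, differed by -0.18 (-0.39 to 0.032). Vehicle replicate 6 was the highest vehicle array for 24 of the 35 cell cycle genes and dosed replicate 3 the highest dosed array for 16.

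Clock, thyroid and fasting genes gave 1 higher and 1 lower gene at an unadjusted p under 0.05, Dio3 and Cry1, over 3 lists. Cry1, a clock repressor, read 7.23, 7.50 and 8.06 in vehicle and 6.76, 7.05 and 7.71 in dosed livers, with 4 dosed arrays below every vehicle array, a difference of -0.37 (-0.73 to -0.012). Nfil3, a clock-controlled repressor, read 8.26, 8.67 and 8.81 and 8.51, 8.88 and 9.08, with 5 dosed arrays above all vehicle arrays, and Nr1d2, a clock nuclear receptor, differed by 0.39 (-0.024 to 0.80), with vehicle replicate 6 apart at 5.99. Over 17 clock genes the median was 0.0059. Dio3, which inactivates thyroid hormone, was dim at 4.17, 4.39 and 4.47 and 4.42, 4.58 and 4.74, with 5 dosed arrays above all vehicle arrays, and differed by 0.20 (0.031 to 0.37); the thyroid list had a median of 0.073. Among glucocorticoid and fasting genes (median 0.0070), Igfbp1, an insulin-repressed binding protein, read 8.00, 9.36 and 9.86 and 9.23, 9.52 and 10.56, and Pck1, the gluconeogenic enzyme, read 12.42, 12.85 and 13.38 and 11.71, 12.63 and 13.20. Lcn2, an iron-siderophore binding protein of inflammation, read 3.94, 5.21 and 6.30 and 5.13, 5.76 and 6.40, with 1 dosed array above the vehicle range, and its difference of 0.50 was smaller than that range. Acute phase proteins had a median of 0.0017; Il1r1, the interleukin 1 receptor, differed by 0.15 (-0.18 to 0.48), and Hamp, the iron hormone hepcidin, by 0.099 (-0.16 to 0.36).

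Genes of basic cell functions had small differences, and their list means varied less within groups than that of the antiviral list. The SD of the list mean was 0.029 for hepatocyte markers and 0.079 for ribosomal proteins, against 0.36 for antiviral genes. These lists therefore do not give the precision of the lists above. Ribosomal proteins had a median of 0.041, with Rps9 at 12.36, 12.51 and 12.61 and 12.51, 12.56 and 12.58, and vehicle replicate 3 was the lowest vehicle array for 12 of the 13. Respiratory chain subunits had a median of 0.018. Hepatocyte markers differed by a median of -0.0019 over 11 genes, with Ttr, transthyretin, at 14.32, 14.34 and 14.37 in vehicle and 14.29, 14.33 and 14.36 in dosed livers and Asgr1, the asialoglycoprotein receptor, different by 0.084 (-0.037 to 0.20). The tissue label is borne out by these markers, which stand near the top of the scale of 1.86 to 14.77, while neutrophil markers and those of pancreas, gut, fat and muscle had mean levels of 3.99 to 4.24 and 4.27 to 4.51 in dosed arrays.

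Other cell types contributed few differences. Sinusoidal endothelial markers had a median of 0.0019, and Flt1, a receptor for vascular growth factor, read 4.57, 4.74 and 4.93 and 4.18, 4.63 and 4.69, a difference of -0.20 (-0.37 to -0.036) with all 3 probe sets lower. Cholangiocyte markers had a median of -0.024, and Spp1, osteopontin, differed by -0.18 (-0.49 to 0.13). In the T and NK list, Il2rb, an interleukin receptor chain, differed by 0.23 (-0.018 to 0.48) and Prf1, perforin, by 0.25 (-0.10 to 0.60). B and plasma cell markers were lower in 6 of 8, with a median of -0.064; Jchain, which joins secreted antibodies, read 6.55, 6.83 and 7.28 and 6.28, 6.58 and 6.71, a difference of -0.36 (-0.72 to -0.011), and 1 of these markers, Jchain, had a mean of at least 6. Medians were -0.013 for neutrophil and monocyte, 0.040 for erythroid and -0.055 for pancreas, gut, fat and muscle markers, where Pnlip, pancreatic lipase, differed by -0.22 (-0.42 to -0.019) at a dim level.

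Outside the lists, the genes with the smallest p were small differences with tight groups. Ppfibp1, a liprin of cell adhesion sites, read 8.51, 8.68 and 8.80 in vehicle and 8.80, 8.88 and 9.08 in dosed livers without overlap, a difference of 0.23 (0.096 to 0.37), while its other probe set differed by -0.072. Ube3a, a ubiquitin ligase, read 6.44, 6.61 and 6.70 and 6.61, 6.78 and 7.06, with 5 dosed arrays above all vehicle arrays, and 3 of its 4 probe sets were higher. Taf3, a subunit of the general transcription factor TFIID, differed by 0.32 (0.16 to 0.48) on 1 of 3 probe sets; the others were lower. Vezt, a protein of adherens junctions, differed by 0.33 (0.15 to 0.51) and Vamp5, a vesicle fusion protein of muscle, by 0.26 (0.097 to 0.41), the latter against 2 other probe sets that were lower. The lower genes named next were dim, under a level of 5 on every one of the 12 arrays. Ppp3r1, the regulatory subunit of calcineurin, read 4.03, 4.09 and 4.45 and 3.62, 3.81 and 4.10 with 3 of 3 probe sets lower. Zfhx4, a zinc finger homeobox factor, differed by -0.28 (-0.44 to -0.12) with 4 of 4 lower, Nlgn2, a synaptic adhesion protein, by -0.26 (-0.40 to -0.11), Ank1, the erythrocyte ankyrin, by -0.25 (-0.38 to -0.11) against 1 of 3 probe sets that was higher, and Pole2, a DNA polymerase subunit, by -0.24 (-0.37 to -0.11).

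Of 11680 probe sets with a mean of at least 6, 11 did not overlap between groups, 8 of them higher and 3 lower. That is a smaller share than the 48 of 31042 (0.155%) over all probe sets. Klf6 and Ppfibp1 were among the 11. Polr1e, a subunit of RNA polymerase I, was lower, at 6.62, 6.76 and 7.13 in vehicle and 6.23, 6.41 and 6.61 in dosed livers. Mical3, an actin-oxidising enzyme of vesicle transport, was higher, at 6.09, 6.33 and 6.53 and 6.57, 6.66 and 6.80, with 1 of 3 probe sets slightly lower. Tns1, tensin of focal adhesions, read 7.62, 7.68 and 7.75 and 7.75, 7.80 and 7.93, and both of its probe sets were higher. Phip, a bromodomain protein, differed by 0.13 (-0.013 to 0.27), Galk2, a sugar kinase, by 0.14 (0.021 to 0.26), and Dbndd2, a dysbindin relative, by 0.16 (0.011 to 0.30). None of them passed the adjusted test, and the interval of Phip includes 0.

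The largest differences among brighter genes came from scattered values. Pbsn, an androgen-dependent secretory protein, read 5.95, 7.60 and 8.03 in vehicle and 7.54, 8.29 and 8.87 in dosed livers; vehicle replicates 4 and 5 were low, and the difference of 1.02 had an interval of 0.21 to 1.84. Nfe2, a transcription factor of blood cell precursors, differed by 0.92 (-0.22 to 2.07) within a vehicle range of 4.43, 5.43 and 7.27. Rup2, a urinary protein, read 7.85, 9.18 and 11.21 and 9.56, 10.18 and 10.80, with vehicle replicates 4, 5 and 6 low, and 3 of its 4 probe sets were lower. Ubd, an interferon-inducible ubiquitin-like modifier, read 5.08, 7.93 and 8.33 and 7.45, 8.04 and 9.59, with vehicle replicate 4 far down. On the lower side, Cyp2d4, a drug-metabolising cytochrome, read 6.23, 6.84 and 7.11 and 5.63, 6.02 and 6.65, with 4 dosed arrays below all vehicle arrays and a difference of -0.61 (-1.06 to -0.16), while its second probe set differed by 0.092. Hsd17b6, a steroid dehydrogenase, read 9.76, 9.93 and 10.54 and 8.85, 9.38 and 10.65; 5 dosed arrays lay below every vehicle array and replicate 2 above them all, and the difference was -0.55 (-1.11 to -0.0015).

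In the genes described next, single livers lay further apart than the means of the groups. Ugt2b, a glucuronosyltransferase of steroids, stood at 12.80 to 13.29 in 11 arrays and at 5.36 in vehicle replicate 5, which alone gives its difference of 1.15 (-1.32 to 3.61); without that array it was -0.15. Abhd3, a phospholipase, stood at 7.26 to 7.70 in vehicle replicates 4 and 6 and dosed replicates 3 and 5, and at 2.55 to 3.24 in the other 8 arrays. RT1-Ba, the alpha chain of a class II molecule, stood at 9.30, 9.47 and 9.85 in vehicle and lay below that range in dosed replicates 4 and 6, at 8.18 and 5.20. RT1-Bb, the beta chain of that molecule, was high in vehicle replicate 1 and dosed replicates 4, 5 and 6, at 5.85 to 7.89, and at 3.39 to 4.30 in the other arrays. Probe sets of these chains did not move together: the 4 of RT1-Ba differed by -0.65 to 0.65, with 1 higher and 3 lower, and the second of RT1-Bb by -0.10 where the one described differed by 0.69. The largest difference among probe sets with a mean of at least 6, -2.05 (-5.44 to 1.34), belonged to one that is assigned to more than 1 gene and is not named here, and it was chosen after its values were seen. It stood at 10.02 to 10.64 in 5 vehicle and 3 dosed arrays, and at 3.45 to 4.42 in vehicle replicate 5 and dosed replicates 1, 5 and 6. Serpinb9b, a protease inhibitor, was at 4.77 in vehicle replicate 3 and 5.64 in dosed replicate 3 and at 7.57 or above elsewhere.

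Onecut1, a hepatocyte transcription factor, and Bcl6, a repressor with male-biased liver expression, varied widely in both groups. Onecut1 read 6.41, 7.67 and 10.18 and 6.66, 8.49 and 9.69, and Bcl6 read 6.60, 7.95 and 9.58 and 5.96, 7.15 and 9.57. The 4 arrays with the highest Onecut1, vehicle replicates 2 and 3 and dosed replicates 1 and 2, had Bcl6 at 5.96 to 7.25, while vehicle replicates 1 and 4 and dosed replicates 4 and 5, the 4 lowest in Onecut1, held the 4 highest Bcl6 values, up to 9.58. The differences between the groups were 0.39 (-1.02 to 1.80) and -0.35 (-1.63 to 0.93), far inside these ranges.

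**Figure D5:**
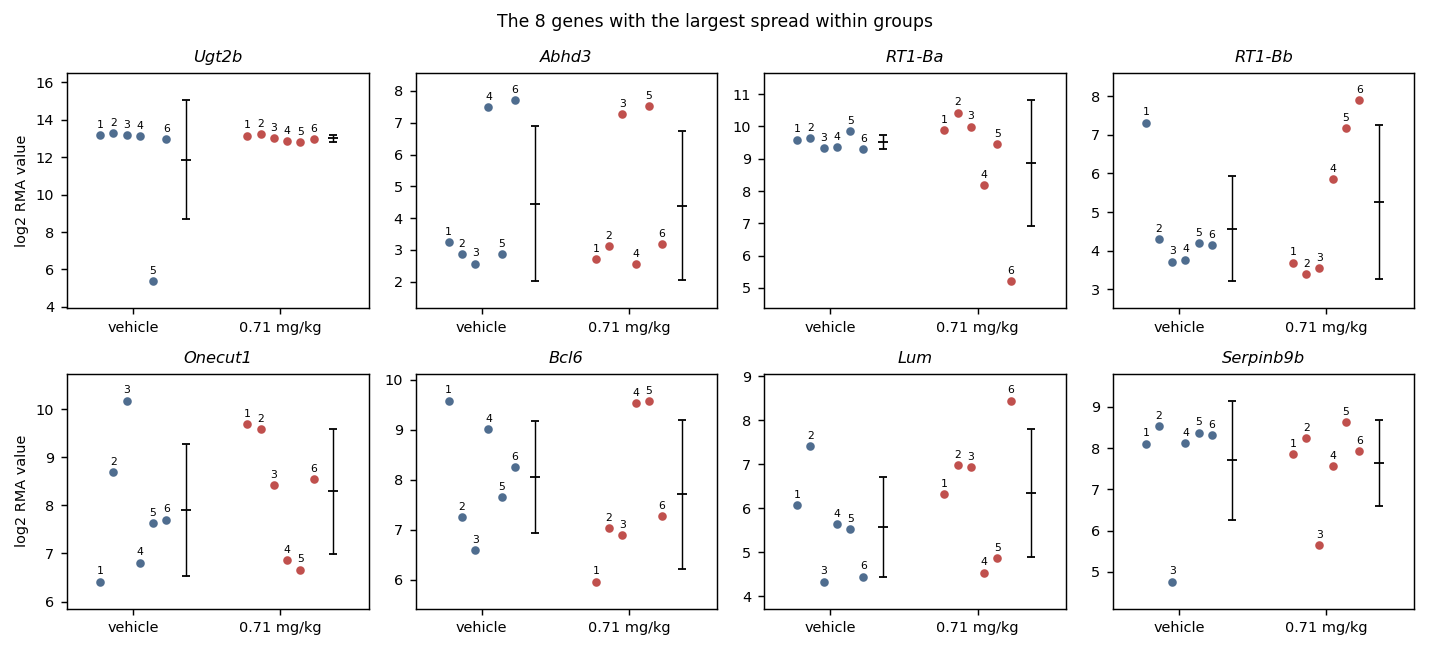
Log2 RMA value in each vehicle and dosed array (replicate numbers beside the points, bars are mean and SD of 6 arrays) for the 8 genes with the highest spread within groups. Vehicle replicate 5 stands at 5.36 for Ugt2b, Abhd3 splits 4 arrays from 8, and Serpinb9b is low in replicate 3 of both groups.

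Set directly against the neighbouring doses, 0.71 mg/kg again gave no call. Against 7.06 mg/kg, 0 of 31042 probe sets (0%) passed by limma, with 880 below an unadjusted p of 0.05, of which 469 had the higher mean at 0.71 mg/kg and 411 the lower, and a smallest adjusted p of 0.9997. Against 0.07 mg/kg, 0 (0%) passed, with 1090 below an unadjusted p of 0.05, split 510 to 580 in the same way, and a smallest adjusted p of 0.9998; without replicate 1 of the 0.07 mg/kg group 1 probe set passed, that of Ntf3. The splits again moved with scaling and filter: against 0.07 mg/kg, 229 of 966 were higher after median centring and 203 of 278 without dim probe sets, and against 7.06 mg/kg, 80 of 187 without dim probe sets. These comparisons and that with vehicle share the 6 arrays at 0.71 mg/kg, so they are not independent of each other.

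Interferon genes were higher at 0.71 than at 7.06 mg/kg in 30 of 32 antiviral genes, with a median of 0.21, and in 11 of 12 interferon gamma genes, with a median of 0.23. The antiviral list mean was 6.36, 6.46 and 6.68 in replicates 3, 1 and 4 at 7.06 mg/kg and 7.08 to 7.40 in its other 3 arrays, so 3 low arrays carried the difference, while the dosed arrays at 0.71 mg/kg spanned 6.48 to 7.52. With single arrays of either group left out the antiviral median ranged from 0.14 to 0.34, lowest without replicate 3 of 7.06 mg/kg and highest without replicate 4 of 0.71 mg/kg, and the interferon gamma median from 0.10 to 0.36. Kupffer cell markers went along, with 11 of 11 higher and a median of 0.21, and their part in the interferon values was not tested. Over all probe sets the median of this comparison was -0.00042. On its brightest probe set Mx2 read 3.39, 5.50 and 6.95 at 7.06 mg/kg against 4.69, 6.45 and 7.61 at 0.71 mg/kg, a difference of 1.10 (0.12 to 2.08). Isg15 differed by 0.70 (0.044 to 1.35), and in both genes the arrays overlapped. Contractile genes had medians of 0.18 against 7.06 and 0.19 against 0.07 mg/kg, and collagens 0.11 and 0.16. Without replicate 6 of 0.71 mg/kg the contractile medians were 0.077 and 0.065; the collagen medians were 0.066 without replicate 3 of 7.06 mg/kg and 0.074 without replicate 6 of 0.07 mg/kg.

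The sterol genes were higher than in vehicle in most members and lower than at 0.07 mg/kg, the latter largely through 1 array. Cholesterol synthesis genes at 0.71 mg/kg were above vehicle in 15 of 17 and above 0.07 mg/kg in 0 of 17, with medians of 0.16 and -0.13. Replicate 4 of 0.07 mg/kg had the highest list mean of its group, 10.996 against 10.29 to 10.77 in the other 5 arrays. It also stood apart in the 3′ minus 5′ level of Gapdh, at 0.34 against -0.13 to 0.04. Replicate 2 of that dose, next in this ratio at 0.039, had a list mean of 10.326, and replicate 5, at -0.023, had 10.772. A link between the ratio and the list mean was not tested. Without replicate 4 of 0.07 mg/kg, 3 of the 17 genes were above that dose and the median was -0.021. Idi1 read 10.93, 11.29 and 12.13 at 0.07 mg/kg and 10.93, 11.26 and 11.60 at 0.71 mg/kg, a difference of -0.16 (-0.54 to 0.22) and of -0.016 without replicate 4 of 0.07 mg/kg. PPAR alpha targets were lower at 0.71 than at 0.07 mg/kg in 30 of 37, with a median of -0.055; Cyp4a1 differed by -0.32 (-0.62 to -0.012) and Ehhadh by -0.24 (-0.43 to -0.054), neither past the threshold after adjustment. Without replicate 4 of 0.07 mg/kg these were a median of -0.057 with 4 of 37 genes higher, -0.35 for Cyp4a1 and -0.17 for Ehhadh.

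Single genes with the smallest p in the direct comparisons were mostly dim. Cxcl13, a B cell chemokine with a mean above 6, read 4.51, 5.63 and 6.22 at 0.07 mg/kg, 6.24, 6.36 and 7.26 at 0.71 mg/kg and 5.38, 5.80 and 6.59 in vehicle, and 0.71 against 0.07 mg/kg differed by 0.96 (0.46 to 1.47). Ntf3, a neurotrophin, read 4.82, 5.76 and 5.95 at 0.07 and 4.74, 5.02 and 5.15 at 0.71 mg/kg, a difference of -0.63 (-0.93 to -0.33) and of -0.79 without replicate 1 of 0.07 mg/kg (adjusted p = 0.0172 by limma). Htra3, a secreted protease, differed by -0.28 (-0.42 to -0.14). Against 7.06 mg/kg, Kctd13, an adaptor of a ubiquitin ligase, differed by -0.23 (-0.35 to -0.11), Il9r, an interleukin receptor, by 0.38 (0.18 to 0.57), and Wee1, a kinase that holds cells before mitosis, by -0.38 (-0.57 to -0.18).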

How the data were processed

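Total liver RNA was labelled with an Affymetrix 3′ IVT Plus kit and hybridised to 1 array per sample. The values are log2 levels deposited by the authors, made with RMA and the affy package per the submitters' processing notes; versions and a genome build are not given in the sources used here. RMA had been applied before deposit, so background and quantile steps were kept as they were. The table holds 31099 probe sets, from which 57 controls were removed. Gene names came from the platform annotation: 20826 probe sets had 1 symbol, 436 several and 9780 none, and a gene was read from its brightest probe set unless stated.

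The series' design text names R/maanova at a false discovery rate of 5%. That package was not used here. limma 3.58.1 (R 4.3.3, lmFit and eBayes) was fitted to all 36 arrays in 6 groups, leaving 30 residual degrees of freedom, with Benjamini-Hochberg adjustment over 31042 probe sets and a threshold of 0.05. The fit was tested on simulated data. Python 3.11.15 and matplotlib 3.10.9 gave summaries and plots. Files give no read depth; the number of arrays limits precision.

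Members and the 41 gene lists were chosen with earlier results of these data known. The lists were described by counts and medians and were not tested as sets. Genes were named by rule: the 10 smallest p in a direction, the 5 largest differences with a mean of at least 6, up to 8 genes without overlap, the 3 smallest p in each list (and every member under 0.05 in the interferon, matrix, contractile and cholesterol lists), a panel of 34 genes (4 were not analysed here), the 8 with the highest spread within groups and the 3 smallest p in each dose comparison; values are given for part of them. Alternatives were other arrays in the fit, the replicate number as a block, variance and array weighting, a filter on dim probe sets, other scaling, an RNA quality covariate and leaving out arrays. Promoter windows matched 526 of 664 list members.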

Additional observations from a re-analysis of the deposited data

Results flagged for a closer look

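In 30 of 350 groups of 6 arrays checked, 1 array stood far from the other 5 of its group; chance gives this in about 1 group in 20 where groups were not picked for their spread. Part of these genes were picked for a high spread or a small p, and list means share correlated genes, so the 2 shares are not set against each other. Of these, 27 were genes and 3 were list means.

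Dosed replicate 6 carried 7, in matrix and smooth muscle genes: Mgp at 10.39, Mmp12 at 5.21, Mmp2 at 6.84, Actg2 at 5.75 and Cnn1 at 5.19, with the contractile list mean at 6.91 and the portal fibroblast list mean at 5.92. All 7 were the highest dosed value. Dosed replicate 3 was lowest of its group for Myc at 6.46, Gadd45a at 7.89, Flt1 at 4.18 and Serpinb9b at 5.64. Dosed replicate 4 was lowest for Irf7 at 6.34 and Cd74 at 9.08.

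In vehicle, replicate 1 was highest for Ifit1 at 6.00, RT1-DMb at 8.45 and RT1-Bb at 7.31. Replicate 6 was highest for Idi1 at 11.62 and Il9r at 4.21 and lowest for Nr1d2 at 5.99 and Dio3 at 4.17. Replicate 4 was lowest for Ubd at 5.08, Abca1 at 8.33 and Ntf3 at 4.91. Replicate 5 was lowest for Ugt2b at 5.36 and highest for Ppp3r1 at 4.45 and Polr1e at 7.13. Replicate 3 was lowest for Serpinb9b at 4.77 and highest for the hepatocyte list mean at 13.58. Single dosed values apart from their group were Pole2 at 3.70 in replicate 5 and Zfhx4 at 3.38 in replicate 1.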

How the results depend on the processing

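The count of 0 called probe sets against vehicle held under every alternative run, including a threshold of 0.1. Replicate numbers did not pair the samples: the deviations of same-numbered vehicle and dosed arrays correlated at -0.138 to 0.154, 1 of 6 pairs was over 0.1, and 1 vehicle array correlated best with its own number; with the replicate block 0 probe sets were called in each of the 3 comparisons. Against 0.07 mg/kg the count ran from 0 to 1 with single arrays left out, the call being Ntf3 without replicate 1 of that dose. Among single genes, signs turned for 4 values in a refit with all arrays: Tgfb1 was 0.0078 under cyclic loess, Ehhadh -0.0031 with the Gapdh ratio as covariate and -0.010 under median centring, and Cyp3a23-3a1 0.014 with that covariate. With single arrays left out, the difference ranged from -0.97 to 0.077 for RT1-Ba, from -0.055 to 0.12 for Acta2, from -0.078 to 0.069 for Pdgfrb, from -0.055 to 0.045 for Tgfb1, from -0.16 to 0.0011 for Cyp4a1, from -0.018 to 0.065 for Ehhadh, from -0.13 to 0.071 for Cyp3a23-3a1, from -0.59 to 0.0029 for Cyp7a1, from -0.15 to 1.43 for Ugt2b, from -0.69 to 0.59 for Abhd3 and from -0.64 to 0.34 for Serpinb9b. Of the 41 list medians 21 changed sign when some single array was left out, 10 under median centring, 6 under cyclic loess, 6 over all probe sets of the members and 4 without dim probe sets. Median centring took to below 0 the medians of TGF-beta and PDGF (-0.021), cell cycle (-0.0007), p53 (-0.026), endoplasmic reticulum stress (-0.025), clock (-0.021), glucocorticoid and fasting (-0.020), acute phase (-0.025), respiratory chain (-0.0090), portal fibroblast (-0.024) and endothelial genes (-0.025), all between 0 and 0.026 before. Without dim probe sets the medians were 0.081 for contractile (6 genes left), 0.024 for interferon gamma (9) and 0.068 for TGF-beta and PDGF genes (9). The value was 0.10 for cholangiocyte markers, from 2 genes. It was -0.36 for B and plasma cell markers and 0.097 for pancreas, gut, fat and muscle markers, each from 1 gene. Values from 1 or 2 genes do not describe those lists. Leaving out single arrays in the lists compared with 7.06 and 0.07 mg/kg was chosen after seeing the data. For the other signs that turned, the cause was not tested. Dim probe sets limit the lists of minor cell types.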
